A study of Mus musculus with 11 samples.

Results

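The 30 genes described here encode voltage-gated sodium channels, the sodium leak channel Nalcn and high-voltage-activated calcium channels with their auxiliary subunits. They were chosen by symbol from the 54532 rows of the deposited count table, and all 30 were found. RNA came from dissected lateral habenula tissue, an epithalamic nucleus engaged by aversive events, of 3-month-old BALB/c mice, for which the labels name no engineered allele. The CAIA mice (collagen antibody-induced arthritis) received 50 mg/kg of a 5-clone antibody cocktail against type II collagen and, 3 days later, 1 mg/kg lipopolysaccharide (LPS), both intraperitoneally. The Ctrl mice received vehicle, so arthritis and LPS exposure cannot be told apart. The libraries were 3 female Ctrl (numbered 1, 2 and 3), 2 male Ctrl (1 and 3), 3 female CAIA and 3 male CAIA. The study asked how arthritis and depression-like behaviour are linked, and the comparison of CAIA with Ctrl asks here whether channel transcripts differ in level. Nothing in the labels says that each library came from its own animal, so the p-values measure only the spread between these libraries.

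Voltage-gated sodium channels open on depolarisation and carry the upstroke of the action potential; a large pore subunit binds small beta subunits that alter gating and placement in the membrane. High-voltage-activated calcium channels open near the peak of the action potential. Their Cav2 pores drive transmitter release, their Cav1 (L-type) pores couple activity to calcium signalling in cell bodies and dendrites, and beta and alpha2delta subunits bring the pore to the surface. In the lateral habenula, sodium and calcium currents shape tonic and burst firing.

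Libraries held 25317306 to 29565006 counts. All 6 lateral habenula markers listed, among them Gpr151 and Pcdh10, were at 1 CPM (counts per 1000000 counts of a library, scaled by TMM factors) or more on average, and summed to 1347 to 1685 CPM in Ctrl and 1421 to 1707 in CAIA. The tissue also held markers of its neighbours: the 9 medial habenula markers summed to 1375 to 1878 CPM in Ctrl and 1459.9 to 1864 in CAIA, and the 7 thalamus markers to 1303 to 2295 CPM in Ctrl and 1703 to 2104 in CAIA. The 12 choroid plexus markers summed to 2684 to 5583 CPM in Ctrl and 245 to 2100.1 in CAIA without overlap. In bulk tissue of this kind, fewer cells of a type and less RNA per cell cannot be told apart. Female Ctrl 3 and male Ctrl 1 stood apart from the other libraries: they held the lowest value for 16.3% and 21.99% of the 15556 tested genes at 1 CPM or more, and 4.36 to 10.1% in the others.

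The pore subunits of sodium channels are close relatives, which bears on how reads can be assigned to them. Scn3a, Scn2a, Scn1a, Scn9a and Scn7a lie on chromosome 2, all within one region (chr2:65457118-65567627 to chr2:66673425-66784914, GRCm38), and Scn10a and Scn11a are neighbours on chromosome 9. Scn2b and Scn4b, a pair of beta subunit genes, are also adjacent there (chr9:45117782-45130070 and chr9:45138395-45154152). Of all runs of 50 bases in the longest transcript, 8.53% in Scn3a, 7.87% in Scn2a, 5.53% in Scn9a and 5.48% in Scn1a also occurred in another gene, mostly in each other. Levels of Scn1a, Scn2a, Scn3a and Scn9a are therefore uncertain to the extent that reads in shared sequence were dropped or assigned to the wrong gene.

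Exons of 8 members overlapped another annotated gene, which matters because the strand setting of the counting is not given in the sources used here. The longest overlaps were 1433 bases of Cacnb4 with A430018G15Rik and 1309 bases of Cacna1s with Gm37759, which held 32 and 12 counts of their own in all libraries together. Cacna1d shared 589 bases with Chdh (1799 counts), Cacna1a 435 bases with Gm16183 (559 counts) and Scn9a 180 bases with Gm13629 (1660 counts). Reads in these stretches cannot be told apart. Promoter windows from RefSeq (GRCm38.p6), the 250 bases before an annotated start, were found for 25 of the 30 members, and Scn3a, Scn3b, Cacna1a, Cacna2d4 and Cacng1 were not matched. The number of CG pairs per window ranged from 1 to 50, against a median of 6 over all windows. The count of 1, below which 7.87% of all 32851 windows lay, was that of Scn2b and of a window of Cacnb1. The count of 50 was that of a window of Cacna1d. Some members had more than 1 window: another of Cacnb1 held 26 and another of Cacna1d held 2. The windows of Cacna2d1, Cacna2d2 and Cacna2d3 held 36, 34 and 30, while that of Nalcn held 2.

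Sodium channel transcripts of the lateral habenula samples came mainly from Scn2a, Scn8a and Scn1a among the pores and from Scn2b among the beta subunits. Levels between genes are given as CPM per kb of annotated exon. In the 5 Ctrl libraries the 9 pore genes summed to 66.2 ± 9.26 CPM per kb (SD, n = 5), of which Scn2a gave 32.3%, Scn8a 26.7% and Scn1a 24.6%. Scn2a (Nav1.2), a main pore of unmyelinated axons and the axon initial segment, stood at 21.3 ± 3.06 CPM per kb. Scn8a (Nav1.6), the main pore of mature axon initial segments and nodes of Ranvier, was at 17.7 ± 2.76 and Scn1a (Nav1.1), known for its role in fast-spiking inhibitory neurons, at 16.3 ± 2.74. The ranges of these 3 genes over Ctrl libraries overlapped. Scn3a (Nav1.3), most abundant in the developing brain, was lower at 8.099 ± 1.87, and Scn9a (Nav1.7), best known from pain-sensing neurons, at 2.02 ± 0.289. Scn7a, which encodes the sodium-sensing channel Nax, was at 0.713 ± 0.201.

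In single libraries Scn2a was at 288, 307 and 262 CPM in female Ctrl 1 to 3, 208 and 294 in male Ctrl 1 and 3, 321, 302 and 282 in female CAIA and 323, 286 and 264 in male CAIA. Its lowest value was in male Ctrl 1, and the CAIA values overlapped those of the other Ctrl libraries. Scn8a ranged from 224 to 319 CPM in Ctrl and from 248 to 340.02 in CAIA. Scn1a ranged from 147 to 208 in Ctrl and from 192 to 224 in CAIA. The ratio of Scn1a to Scn2a per kb was 0.765 ± 0.0722 in Ctrl (n = 5) and 0.781 ± 0.0503 in CAIA (n = 6), with its lowest value, 0.641, in female Ctrl 3. The ratio of Scn8a to Scn2a spanned 0.734 to 0.894 in Ctrl and 0.678 to 0.929 in CAIA. Scn9a ranged from 21.2 to 29.5 CPM in Ctrl and from 25.1 to 31.2 in CAIA.

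The pores of skeletal muscle and of sensory ganglia were near the limit of counting. Scn4a, the skeletal muscle pore, had 15 counts in all 11 libraries: 1, 1 and 3 counts in female Ctrl 1 to 3, 0 and 1 in male Ctrl 1 and 3, 1, 1 and 2 in female CAIA and 0, 3 and 2 in male CAIA. Scn10a (Nav1.8) and Scn11a (Nav1.9), pores of pain-sensing ganglion neurons, had 7 and 10. Scn10a was at 3, 0 and 1 counts in female Ctrl 1 to 3, 0 and 1 in male Ctrl 1 and 3, 0, 1 and 0 in female CAIA and 0, 1 and 0 in male CAIA. Scn11a was at 0, 0 and 1 counts in female Ctrl 1 to 3, 1 and 1 in male Ctrl 1 and 3, 1, 2 and 0 in female CAIA and 0, 3 and 1 in male CAIA. No library held more than 3 counts of any of these genes, and a count of 0 in a library allows up to 3 counts, or 0.101 to 0.118 CPM. These limits cover counting error only. The genes were left out of the test by the filter on low counts, and no difference between groups was detectable at this depth.

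Among the beta subunits, which also act as cell adhesion molecules, Scn2b led with 89.7 ± 9.28 CPM per kb in Ctrl, ahead of Scn3b at 29.7 ± 2.17 and Scn4b at 11.2 ± 3.001 (SD, n = 5). Scn2b exceeded every sodium channel pore gene per kb in every Ctrl library. It was at 426, 462 and 349 CPM in female Ctrl 1 to 3, 442 and 408 in male Ctrl 1 and 3, 451, 422 and 441 in female CAIA and 456, 425 and 429 in male CAIA. Female Ctrl 3 was the lowest library, and the CAIA values lay inside the range of the other Ctrl libraries. Scn3b, which binds the pore without a covalent link, was at 156, 166 and 180.2 CPM in female Ctrl 1 to 3, 159 and 149 in male Ctrl 1 and 3, 194, 179.8 and 185 in female CAIA and 191, 166 and 159 in male CAIA. The female CAIA libraries held values near or above the highest of the Ctrl values, while the male CAIA values overlapped with Ctrl. Scn4b, the beta subunit linked to resurgent sodium current, was at 68.04, 65.3 and 30.3 CPM in female Ctrl 1 to 3, 58.5 and 55.6 in male Ctrl 1 and 3, 51.2, 44.97 and 49.5 in female CAIA and 61.1, 50.8 and 59.8 in male CAIA. Female Ctrl 3 was the lowest of the 11, and the other 4 Ctrl libraries lay above the 3 female CAIA libraries.

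Nalcn, which carries a background sodium leak that depolarises resting neurons, stood at 12.8 ± 1.59 CPM per kb in Ctrl (SD, n = 5). With the longest transcript as length in place of all exons its level was 26.5, which moved it from rank 12 to rank 7 among the 30 genes. Per library it was at 182, 199 and 205 CPM in female Ctrl 1 to 3, 151 and 206 in male Ctrl 1 and 3, 219.8, 206 and 214 in female CAIA and 211, 188 and 199 in male CAIA. The 3 female CAIA libraries lay above the 3 female Ctrl libraries, and in males the values of the groups overlapped.

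**Figure D1:**
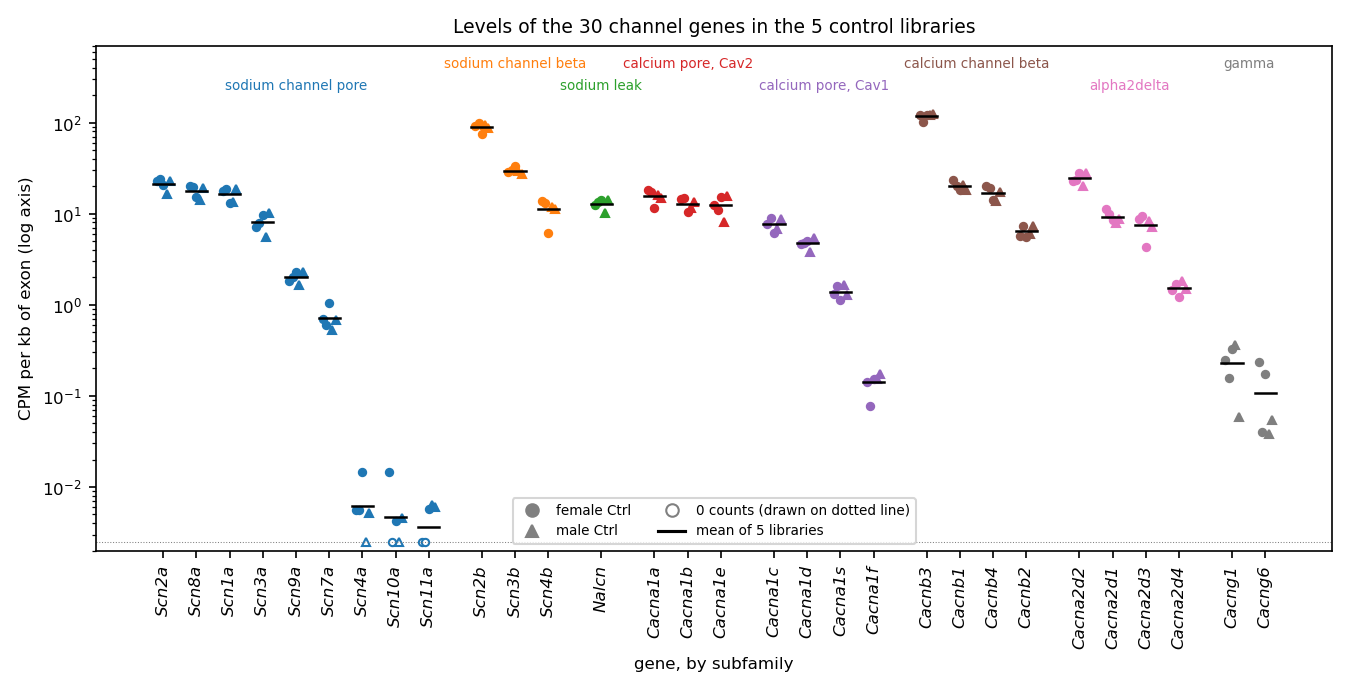
Level of each of the 30 genes in the 5 Ctrl libraries, as CPM per kb of exon on a log axis, grouped by subfamily and ordered by mean within it; circles are female and triangles male libraries, open symbols on the dotted line are libraries at 0 counts, and the bar is the mean. Cacnb3 and Scn2b lie above all other members in every Ctrl library, and Scn4a, Scn10a and Scn11a lie at or near 0.

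The calcium channel pores were led by the Cav2 class, whose members were close to each other in level per kb of all exons. In Ctrl the 3 Cav2 genes summed to 40.9 ± 4.36 CPM per kb and the 4 Cav1 genes to 13.9 ± 1.52 (SD, n = 5). Cacna1a, the P/Q-type pore, was at 15.5 ± 2.61, Cacna1b, the N-type pore, at 12.9 ± 1.897, and Cacna1e, the R-type pore, at 12.5 ± 3.15, and their ranges overlapped. With the longest transcript as length, Cacna1a was at 22.4, Cacna1e at 21.1 and Cacna1b lower, at 13.2, so their closeness and order depend on the length used. Cacna1a was at 209.8, 195 and 132 CPM in female Ctrl 1 to 3, 181 and 169 in male Ctrl 1 and 3, 173, 159 and 157 in female CAIA and 200.2, 199 and 164 in male CAIA. Its lowest value was in female Ctrl 3, and its highest in female Ctrl 1. Cacna1e was at 309.8, 278 and 382 CPM in female Ctrl 1 to 3, 203 and 398 in male Ctrl 1 and 3, 353, 314 and 305 in female CAIA and 369, 427 and 285 in male CAIA. Its lowest value was in male Ctrl 1, and female Ctrl 3, low in Cacna1a, was among the higher libraries. The ratio of Cacna1e to Cacna1a per kb accordingly spanned 0.506 to 1.31 in Ctrl, with male Ctrl 1 and female Ctrl 3 at the ends, and 0.787 to 0.9697 in CAIA. Cacna1b ranged from 104 to 147 CPM in Ctrl and from 114 to 145 in CAIA.

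Of the L-type pores, Cacna1c (Cav1.2) at 7.67 ± 1.19 and Cacna1d (Cav1.3) at 4.72 ± 0.607 CPM per kb, the neuronal members, made up 54.9% and 33.99% of the Cav1 sum in Ctrl. Cacna1c was at 165, 190.3 and 130.3 CPM in female Ctrl 1 to 3, 144 and 183 in male Ctrl 1 and 3, 178, 168 and 151 in female CAIA and 207, 205 and 153 in male CAIA. The highest values were in male CAIA 1 and 2 and the lowest in female Ctrl 3, with overlapping groups. Cacna1d, which opens at more negative voltages, was at 59.2, 59.8 and 63.2 CPM in female Ctrl 1 to 3, 47.4 and 68.1 in male Ctrl 1 and 3, 60.8, 56.2 and 51.7 in female CAIA and 64.6, 68.3 and 57.04 in male CAIA. Male Ctrl 1 held its lowest value and male Ctrl 3 nearly its highest. Cacna1s, the pore of skeletal muscle, was at 1.39 ± 0.215 CPM per kb and had 2596 counts in all. Its libraries were at 8.64, 10.5 and 7.42 CPM in female Ctrl 1 to 3, 10.7 and 8.43 in male Ctrl 1 and 3, 8.25, 8.34 and 8.896 in female CAIA and 9.195, 7.89 and 7.48 in male CAIA, with every CAIA value inside the Ctrl range. The skeletal muscle markers were at or near 0: of 6, only Acta1 averaged 1 CPM or more, Ckm had at most 4 counts in a library, and the 6 together summed to 4.36 to 7.27 CPM in Ctrl and 4.15 to 6.203 in CAIA.

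Cacna1f (Cav1.4), the pore of photoreceptor terminals, had 414 counts in all, or 0.1402 ± 0.03698 CPM per kb in Ctrl (SD, n = 5). It was at 33, 18 and 41 counts in female Ctrl 1 to 3, 37 and 44 in male Ctrl 1 and 3, 31, 69 and 18 in female CAIA and 27, 40 and 56 in male CAIA. The highest values were in female CAIA 2 and male CAIA 3. Those were also the libraries with the most counts of Crx, a transcription factor shared by photoreceptors and pinealocytes, at 133 and 126. The other libraries held 0 to 26 Crx counts, and male Ctrl 3, with 44 Cacna1f counts, held 0. The 14 pineal markers, of which 5 averaged 1 CPM or more, summed to 43.5 to 64.4 CPM in Ctrl and 33.2 to 81.5 in CAIA, and Otx2 is also on the choroid plexus list. The part of pineal RNA in Cacna1f was not tested.

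Auxiliary subunits of calcium channels were dominated by Cacnb3, the most abundant of the 30 genes. The 4 beta subunit genes, which bind the pore inside the cell, summed to 161 ± 8.09 CPM per kb in Ctrl (SD, n = 5), and Cacnb3 gave 73.03% of this. Cacnb3 was at 118 ± 9.09, Cacnb1 at 20.1 ± 2.06, Cacnb4 at 16.9 ± 2.86 and Cacnb2 at 6.39 ± 0.892. In single libraries Cacnb3 was at 479.7, 408 and 489.8 CPM in female Ctrl 1 to 3, 485 and 497 in male Ctrl 1 and 3, 422, 419 and 509 in female CAIA and 463, 514 and 389.8 in male CAIA. The ranges of the groups overlapped, and the lowest value was in male CAIA 3 and the highest in male CAIA 2. Cacnb1, also the beta subunit of skeletal muscle, was at 105, 90.01 and 82.3 CPM in female Ctrl 1 to 3, 93.7 and 82.96 in male Ctrl 1 and 3, 86.97, 88.9 and 85.7 in female CAIA and 90.02, 96.03 and 82.7 in male CAIA. Female Ctrl 1 stood above the others. Cacnb2, best known from the heart, was at 74.7, 97.2 and 73.9 CPM in female Ctrl 1 to 3, 79.5 and 97.3 in male Ctrl 1 and 3, 94.6, 83.9 and 87.5 in female CAIA and 92.2, 93.6 and 86.97 in male CAIA. The lowest values were those of female Ctrl 1 and 3, and the spread was wider in Ctrl than in CAIA. Cacnb4, which is mutated in the lethargic mouse, ranged from 124 to 180.4 CPM in Ctrl and from 142 to 173 in CAIA.

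The alpha2delta subunits are extracellular proteins that raise the number of channels at the surface, and the first and second are the binding sites of gabapentin. Cacna2d2 led with 24.3 ± 3.49 CPM per kb and 56.9% of the alpha2delta sum in Ctrl, followed by Cacna2d1 at 9.29 ± 1.34, Cacna2d3 at 7.58 ± 2.03 and Cacna2d4 at 1.53 ± 0.2296. With the longest transcript as length, Cacna2d3 at 17.9 lay above Cacna2d1 at 15.5. Cacna2d2 was at 180.3, 185 and 220.5 CPM in female Ctrl 1 to 3, 158 and 223 in male Ctrl 1 and 3, 198, 188 and 201 in female CAIA and 206, 219 and 173 in male CAIA. Its lowest value was in male Ctrl 1 and its highest in male Ctrl 3, so the Ctrl range enclosed the CAIA range. Cacna2d1 was at 141, 123 and 107 CPM in female Ctrl 1 to 3, 98.8 and 107 in male Ctrl 1 and 3, 130.1, 117 and 110.1 in female CAIA and 132, 116 and 120.2 in male CAIA. In males the 3 CAIA values lay above both Ctrl values, while in females the values overlapped. Cacna2d3 was at 76.1, 82.2 and 37.2 CPM in female Ctrl 1 to 3, 72.8 and 62.4 in male Ctrl 1 and 3, 65.2, 49.4 and 66.9 in female CAIA and 68.6, 56.5 and 60.5 in male CAIA. Female Ctrl 3 was the lowest library, and female Ctrl 1 and 2 the highest. Cacna2d4 was at 13.9, 16.02 and 11.4 CPM in female Ctrl 1 to 3, 17.1 and 14.04 in male Ctrl 1 and 3, 14.5, 14.4 and 14.2 in female CAIA and 14.5, 15.8 and 14.95 in male CAIA, with a narrow spread in CAIA.

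Both gamma subunits of the set belong to the muscle type and were scarce. Cacng1, the gamma subunit of the skeletal muscle channel, had 86 counts in all, and Cacng6 65, so that with Scn4a, Scn10a and Scn11a they were the members under 110 counts in total. Cacng1 was at 8, 5 and 12 counts in female Ctrl 1 to 3, 12 and 2 in male Ctrl 1 and 3, 6, 11 and 9 in female CAIA and 5, 8 and 8 in male CAIA. Cacng6 was at 12, 2 and 10 counts in female Ctrl 1 to 3, 2 and 3 in male Ctrl 1 and 3, 6, 8 and 2 in female CAIA and 3, 13 and 4 in male CAIA. Single libraries moved these values: male CAIA 2 and female Ctrl 1 and 3 held 13, 12 and 10 of the 65 Cacng6 counts.

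In the order of Ctrl levels per kb, Cacnb3 and Scn2b did not overlap with each other or with the gene that followed. From Scn3b (rank 3) to Cacnb2 (rank 19) every gene overlapped in range with the next. Gaps without overlap then followed below Cacnb2, Cacna1d, Cacna1s, Scn7a and Cacng6. With the longest transcript as length, the top 6 kept their ranks, while Cacnb4 moved from 8 to 12, Cacna1b from 11 to 16, Cacna2d3 from 18 to 13 and Cacnb2 from 19 to 14.

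No member was called different between CAIA and Ctrl. Of the 30, 27 passed the filter on low counts, and none had an adjusted p under 0.05 in edgeR's quasi-likelihood test, whether for both sexes, for females, for males or for the difference between the sexes. Over both sexes 117 of 19619 genes were called (0.596%), in females 51 (0.26%), in males 0 (0%) and for the difference 0 (0%). At an unadjusted p under 0.05 in that test, 1 of the 27 genes passed over both sexes (3.7%, against 1248 or 6.36% of all genes tested). In females 0 passed (against 1025 or 5.22%). In males 1 passed (3.7%, against 1104 or 5.63%), and for the difference 0 (against 807 or 4.11%). The smallest adjusted p of a member over both sexes was 0.728, for Scn3b. DESeq2 and limma-voom also called 0 of the members in each comparison.

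Over both sexes, the 95% interval of the log2 fold change had a median half-width of 0.21 over the 27 genes. It lay inside -0.5 to 0.5 for 21 of them and inside -1 to 1 for 26, the exception being Cacng6. A p that misses the threshold does not show that levels were equal. The choroid plexus markers, which separated the treatments, and the pair of Ctrl libraries that stood apart were not terms of this fit.

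**Figure D2:**
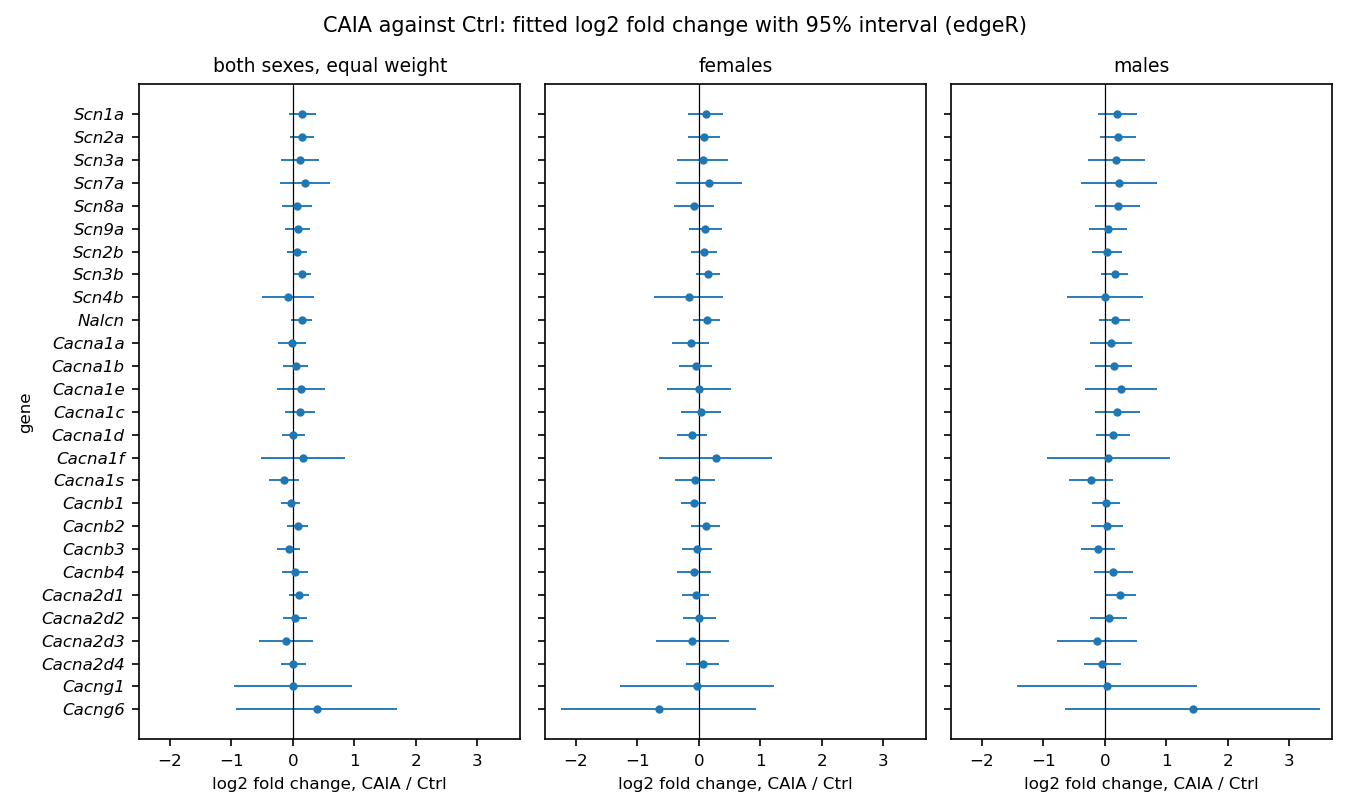
Fitted log2 fold change of CAIA against Ctrl with its 95% interval for the 27 tested genes (rows), with a panel each for both sexes, females and males. Nearly all points lie close to 0, the intervals of Scn3b over both sexes and of Cacna2d1 in males just exclude 0, and Cacng1, Cacng6 and Cacna1f, with the fewest counts, have the widest intervals.

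The positive values with the lowest unadjusted p over both sexes were those of Scn3b, Nalcn and Scn2a. Scn3b averaged 162 ± 11.8 CPM in Ctrl (n = 5) and 179 ± 13.9 in CAIA (n = 6), a log2 fold change of 0.16 ± 0.07 (SE) with an interval of 0.01 to 0.30 and an adjusted p of 0.728. Its log2 fold change was 0.15 ± 0.09 in females and 0.16 ± 0.10 in males. Nalcn was at 0.14 ± 0.08 (adjusted p = 0.853) and Scn2a at 0.15 ± 0.09 (adjusted p = 0.881). Both values moved with the male Ctrl libraries: without male Ctrl 1 Nalcn was at 0.03 and Scn2a at 0.03, and without male Ctrl 3 they were at 0.28 and 0.29. Without female Ctrl 3 and male Ctrl 1 together, Nalcn was at 0.05 and Scn2a at -0.01, while Scn3b was at 0.20. The negative values with the lowest p were Cacna1s at -0.14 ± 0.11 (adjusted p = 0.924), Cacnb3 at -0.07 ± 0.09 (adjusted p = 0.955) and Cacna2d3 at -0.12 ± 0.20 (adjusted p = 0.967). With single libraries left out they ran from -0.21 to -0.06, -0.12 to -0.02 and -0.26 to -0.01.

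In females the log2 fold changes were small in all named genes, and every adjusted p in edgeR was 0.9998. Scn3b, Nalcn and Cacnb2 were at 0.15 ± 0.09, 0.13 ± 0.10 and 0.11 ± 0.11, and Cacna1d, Cacna1a and Cacnb1 at -0.11 ± 0.12, -0.13 ± 0.14 and -0.08 ± 0.10 (SE). Without female Ctrl 1, which held the highest value of both genes, Cacna1a was at 0.0037 and Cacnb1 at 0.03. In males Cacna2d1 was at 0.25 ± 0.12 (interval 0.00 to 0.50, adjusted p = 0.878), Scn2a at 0.21 ± 0.14 and Scn3b at 0.16 ± 0.10, against Cacna1s at -0.22 ± 0.17, Cacnb3 at -0.11 ± 0.13 and Cacna2d3 at -0.13 ± 0.29. The male value of Scn2a was -0.02 without male Ctrl 1, a fit that leaves 1 male Ctrl library and assumes that it varies like the other groups.

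For the difference between the sexes (females minus males) the lowest unadjusted p was that of Cacna2d1, at -0.30 ± 0.16 (SE, adjusted p = 0.978 in edgeR). Cacng6 was at -2.08 ± 1.22, a value that rests on 65 counts, and Cacna1d at -0.24 ± 0.18. For Cacna1d this value was 0.04 without female Ctrl 3 and male Ctrl 1.

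Groups separated completely in few of the members. Over both sexes no tested member had all CAIA values above, or all below, the Ctrl values, against 0.168% of all genes higher and 1.01% lower. In females Nalcn was higher in every CAIA library (5.08% of all genes), and none was lower (6.39%). In males Cacna2d1 and Cacng6 were higher (9.18%) and none was lower (8.51%).

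By subfamily the fitted values were mostly positive over both sexes: 21 of the 27 tested genes were above 0, with a median log2 fold change of 0.06, against 50.05% of all genes tested and a median of 0.00017. All 6 tested sodium channel pores were above 0 (median 0.13), as were 2 of 3 sodium channel beta subunits, 2 of 3 Cav2 pores, 3 of 4 Cav1 pores, 2 of 4 calcium channel beta subunits and 3 of 4 alpha2delta subunits. In females 14 of 27 and in males 23 of 27 were above 0, with medians of 0.001 and 0.13. The counts over both sexes and in males moved most with male Ctrl 1. Without it 14 of 27 were above 0 over both sexes, with a median of 0.00076, and 13 of 27 in males, with a median of -0.01. Without female Ctrl 3 the counts were 23 in males, 12 in females and 17 with the sexes joined. Without both libraries, 10 of 27 were above 0 over both sexes, with a median of -0.03, and in males 12 of 27, with a median of -0.02. Summed over the pore genes, sodium channels were at 51.9 to 74.1 CPM per kb in Ctrl and 65.3 to 79.3 in CAIA, where the lowest Ctrl value was that of male Ctrl 1. The Cav2 sums were 35.3 to 45.1 in Ctrl and 37.3 to 48.5 in CAIA, and the groups overlapped.

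Of the 25 members at 1 CPM or more on average, female Ctrl 3 held the lowest value for 11 and male Ctrl 1 for another 11. Female Ctrl 3 was lowest for Scn1a, Scn2b, Scn4b, Cacna1a, Cacna1b, Cacna1c, Cacna1s, Cacnb1, Cacnb2, Cacna2d3 and Cacna2d4, and male Ctrl 1 for Scn2a, Scn3a, Scn7a, Scn8a, Scn9a, Nalcn, Cacna1e, Cacna1d, Cacnb4, Cacna2d1 and Cacna2d2. Below the mean of the 11 libraries were 15 of the 25 genes in female Ctrl 3 and 16 in male Ctrl 1, 8 of them in both. The mean absolute deviation from a gene's mean log2 CPM was 0.27 in female Ctrl 3 and 0.26 in male Ctrl 1, and 0.09 to 0.17 in the other libraries. The SD over libraries was larger in Ctrl than in CAIA for 21 of the 25 genes, as it was for 68.5% of all genes tested, and for 15 of 25 without that pair. Cacna1f had both its lowest and its highest value in CAIA, at 0.618 and 2.41 CPM, the widest range of the 25 in fold.

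**Figure D3:**
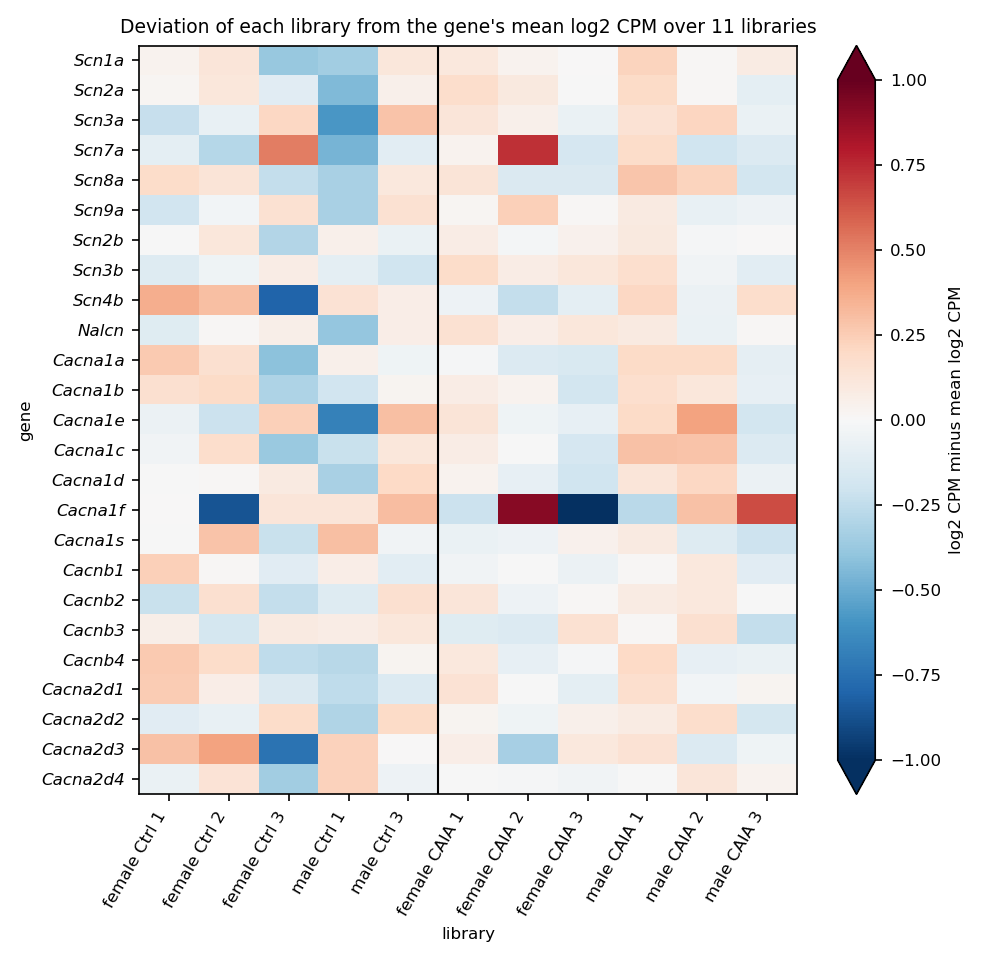
Heat map of the 25 genes at 1 CPM or more (rows) in the 11 libraries (columns, Ctrl left of the line), coloured by log2 CPM minus the gene's mean over libraries; colours saturate at -1 and 1. Female Ctrl 3 and male Ctrl 1 are blue for 15 and 16 genes, 8 of them shared, with 11 genes each at the lowest value, and Cacna1f and Scn7a vary most over all libraries.

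The genes that varied most between libraries, apart from the scarce Cacna1f and Scn7a, were Cacna2d3, Scn4b, Cacna1e and Scn3a, with a coefficient of variation of 19.8%, 19.5%, 19.4% and 15.7% over the 11 libraries. The steadiest was Scn2b, at 7.22%. Scn4b and Cacna2d3 were lowest in female Ctrl 3, at 30.3 and 37.2 CPM. In that library the thalamus markers had their lowest sum, 1303 CPM against 1658 to 2295 in the others, and Prkcd, a marker of thalamic relay nuclei, was at 252 CPM. The medial habenula markers had their highest sum there, 1878, as did the 5 oligodendrocyte and 5 astrocyte markers, 5992 and 1495. The 6 neuron markers had their lowest sum in that library, 3715 CPM against 3966 to 4639 in the others. Cacna1e and Scn3a were lowest in male Ctrl 1, at 203 and 69.8 CPM. Its thalamus sum was 2129 and its medial habenula sum 1532 CPM, both inside the range of the other libraries. Of the 9 medial habenula markers, Chat, Slc5a7, Chrna3 and Nwd2 were at their lowest there, and Calb2 was at its highest, 663 CPM. The hippocampus and cortex markers had their lowest sum in male Ctrl 1, 253 CPM, and the astrocyte markers likewise, 1032, while its neuron sum was 4131. The part of neighbouring regions and of the makeup of cell types in these differences was not tested.

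**Figure D4:**
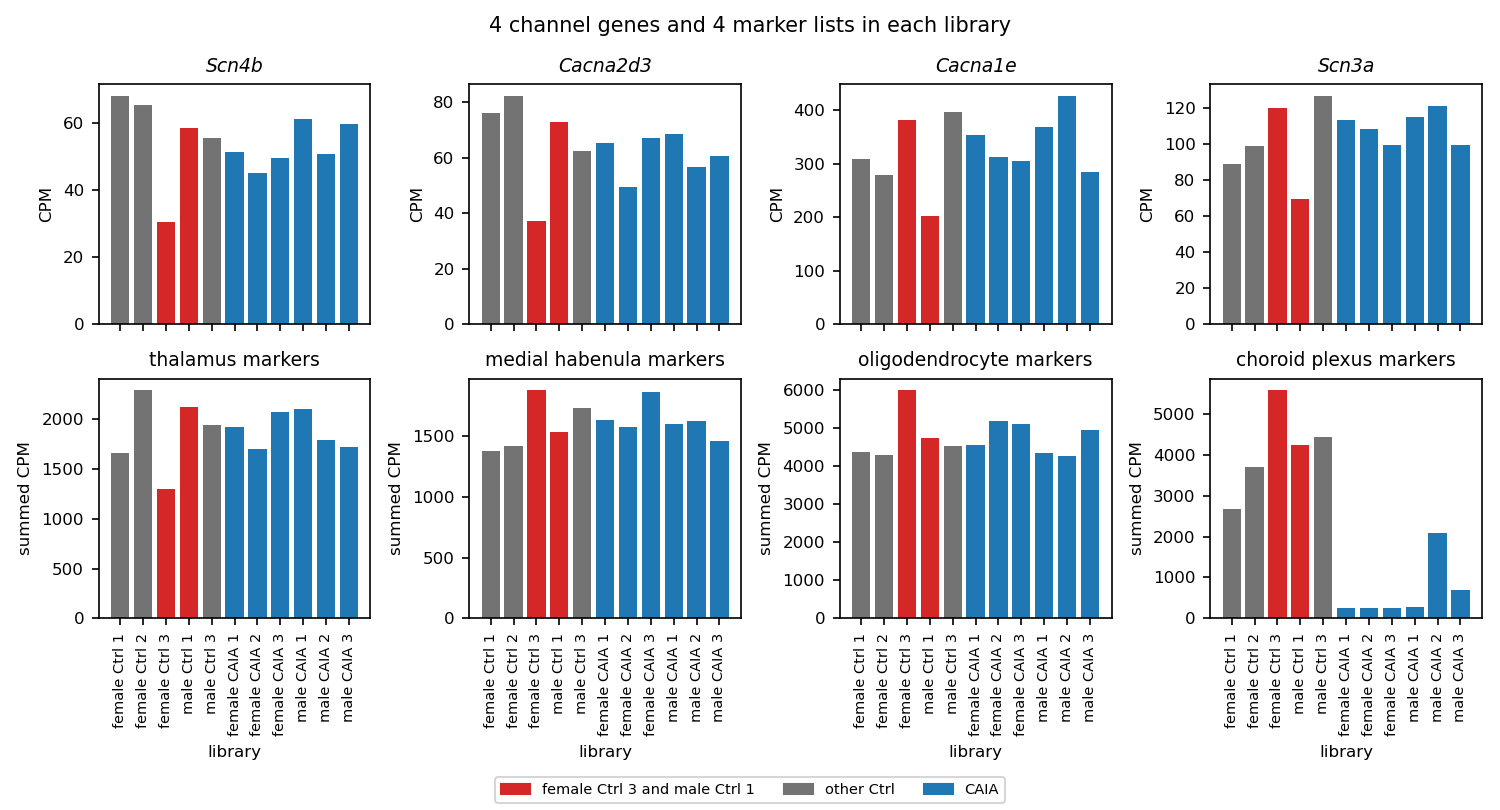
CPM of Scn4b, Cacna2d3, Cacna1e and Scn3a (top) and summed CPM of the thalamus, medial habenula, oligodendrocyte and choroid plexus markers (bottom) in each library, as bars from 0; red marks female Ctrl 3 and male Ctrl 1, grey the other Ctrl and blue the CAIA libraries. Scn4b and Cacna2d3 are lowest in female Ctrl 3, Cacna1e and Scn3a in male Ctrl 1, and the choroid plexus sums of Ctrl lie above those of CAIA.

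A list of 43 further genes of these channels, made of partners that anchor, regulate or assemble with them and of the low-voltage-activated calcium pores, showed no call either. Of these 42 were tested, and 0 passed an adjusted p of 0.05 in edgeR in any of the 4 comparisons. At an unadjusted p under 0.05 there were 2 over both sexes (4.76%, against 6.36% of all genes tested) and 0 in females (against 5.22%). In males there were 4 (9.52%, against 5.63%), and for the difference 3 (7.14%, against 4.11%). Over both sexes 26 of 42 were above 0 (61.9%), with a median log2 fold change of 0.04, against 50.05% of all genes tested and a median of 0.00017. The lowest unadjusted p was that of Cacna1h, a T-type pore, at 0.85 ± 0.33 (SE, adjusted p = 0.733). Cacna1h was at 46.4, 22.1 and 59.8 CPM in female Ctrl 1 to 3, 19.4 and 25.1 in male Ctrl 1 and 3, 54.03, 40.7 and 25.9 in female CAIA and 68.9, 108 and 53.4 in male CAIA. The male CAIA values lay above the male Ctrl values and the female groups overlapped. The 8 hippocampus and cortex markers, which also separated in males, summed to 253 and 266 CPM in male Ctrl and 405, 503 and 346 in male CAIA, and their part in the values of Cacna1h was not tested.

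Nedd4l, a ubiquitin ligase that removes sodium channels from the membrane, was at 143, 137 and 144 CPM in female Ctrl 1 to 3, 109 and 156 in male Ctrl 1 and 3, 158, 142 and 146 in female CAIA and 169, 188 and 142 in male CAIA. Its log2 fold change over both sexes was 0.20 ± 0.09 (SE, adjusted p = 0.779 in edgeR), and its lowest value was in male Ctrl 1. Fam155a, a subunit of the Nalcn channel complex, was at 97.1, 105 and 84.1 CPM in female Ctrl 1 to 3, 94.95 and 89.2 in male Ctrl 1 and 3, 105, 99.4 and 103 in female CAIA and 113, 99.99 and 95.2 in male CAIA, with a log2 fold change of 0.13 ± 0.07 (adjusted p = 0.848) beside 0.14 ± 0.08 for Nalcn itself. Fgf14, which binds the tail of sodium channel pores, was at 35.8, 31.1 and 31.1 CPM in female Ctrl 1 to 3, 22.96 and 36.3 in male Ctrl 1 and 3, 38.3, 34.7 and 34.1 in female CAIA and 38.1, 34.6 and 32.3 in male CAIA, with 0.19 ± 0.10 (adjusted p = 0.855). Here too male Ctrl 1 was the lowest library.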

How the data were processed

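Total RNA of lateral habenula tissue was sequenced in 11 libraries, 25317306 to 29565006 counts each. The deposited table holds raw read counts per gene, made by the authors on GRCm38. The submitters' processing notes name featureCounts 1.5.0-p3, cutadapt 1.9.1 and HISAT2 2.0.5. Neither the annotation release nor the strand setting is stated in the sources used here. Groups came from sample titles. The members and lists were chosen with earlier results of these data known.

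Coordinates and exon lengths came from GENCODE M21 (GRCm38), which held 54495 of the 54532 identifiers. Genes passing filterByExpr (19619) were scaled by TMM and fitted as 4 group means in edgeR 4.0.16 (R 4.3.3, robust quasi-likelihood test, 7 residual degrees of freedom), with Benjamini-Hochberg adjustment over all genes at 0.05. The SE is the absolute log2 fold change divided by the root of F. Replicates differed by more than sampling noise (chi-square per degree of freedom 7.09 or more). The fit was tested on simulated counts that held no sex effect and no libraries that stand apart. That test therefore does not cover these features of the data.

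Values in each library are given for the 3 tested members above and the 3 below 0 with the lowest p per CAIA comparison, the 3 lowest p for the difference, the highest and lowest of each subfamily, members under 110 counts and the 4 partner genes with the lowest p. Alternatives were other size factors, filters, thresholds and models, DESeq2 1.42.0, limma-voom (limma 3.58.1), a replicate block, longest-transcript lengths and leaving out libraries; leaving out female Ctrl 3 and male Ctrl 1 together was chosen after seeing the data. Figures used matplotlib 3.10.9.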

Additional observations from a re-analysis of the deposited data

Results flagged for a closer look

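Of 60 groups of values (30 genes in 5 Ctrl and in 6 CAIA libraries), 2 held a library set far from the others of its group, where about 1 in 20 groups is expected by chance. Scn7a was at 8.97 CPM in female CAIA 2, and the next highest CAIA library was at 6.16. Cacnb3 was at 408 CPM in female Ctrl 2, and the next lowest Ctrl library was at 479.7.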

How the results depend on the processing

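In each of 83 combinations of an alternative setting with 1 of the 4 comparisons, 0 members were called. These include the adjusted p threshold of 0.1, which uses the main fit again. The smallest adjusted p of a member was 0.0602 (Scn3a in males without male Ctrl replicate 3), 0.0672 (Nalcn over both sexes, same fit; its log2 fold change was 0.28 there and 0.03 without male Ctrl replicate 1), 0.0695 (Scn4b in females without the pair of Ctrl libraries that stand apart, log2 fold change -0.46) and 0.218 (Cacna1d, difference). Of 435 fold changes of named members 429 kept their direction, where those at the threshold of 0.1 equal the main values by construction. Those that reversed were Scn2a without that pair (-0.00562 over both sexes, -0.0302 in males) and in males without male Ctrl replicate 1 (-0.0208; range over single libraries up to 0.493), Cacna1a and Cacnb1 in females without female Ctrl replicate 1 (0.00374 and 0.0252; down to -0.318 and -0.168 without female Ctrl replicate 3), and Cacna1d for the difference without that pair (0.037); the causes were not tested. The median log2 fold change of the tested members ran from -0.03 to 0.16 over both sexes, -0.03 to 0.04 in females, -0.02 to 0.32 in males and -0.27 to -0.01 for the difference.

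Counts over all genes moved more. Over both sexes (117 genes) they were 196 with DESeq2, 179 at an adjusted p of 0.1, 470 with no filter, 40 without the pair and 43 to 180 when single libraries were left out. In females (51) they were 150, 91, 452 and 20 in the same order, 108 with females alone and 0 to 104 over single libraries. In males (0) they were 44 with DESeq2, 43 with males alone, 423 with no filter, 1 without the pair and 0 to 142 over single libraries, and for the difference (0) 2 with DESeq2 and 316 with no filter. Deviations of same-numbered libraries from their group means correlated at -0.21 to 0.03. With so few libraries per group, and labels that state no pairing, these values cannot tell whether the numbers pair them. The replicate block within sex gave 126 genes over both sexes, 82 in females, 31 in males and 0 for the difference, and 0 members.

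With longest-transcript lengths the summed Ctrl levels were 90.3 CPM per kb for sodium channel pores, 26.5 for Nalcn, 56.6 for Cav2, 20.2 for Cav1, 234 for calcium channel beta and 69.2 for alpha2delta. At 7 to 86 counts in total, Scn4a, Scn10a, Scn11a, Cacng1 and Cacng6 allow no comparison of small changes.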
